A study of Mus musculus with 31 samples.

Results

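Transcript levels of 8 dermal papilla genes, Rspo3, Sox2, Sox18, Corin, Alpl, Vcan, Wif1 and Crabp1, were followed across 31 arrays of mouse skin. The genes were chosen by name as genes linked to the papilla, and each was represented by 1 probe set, the one with the highest mean over the arrays among those that carry its symbol alone. They are 8 of the 18193 genes the arrays measured in this way. The skin came from C3H/HeJ mice, an inbred strain that develops alopecia areata, in a study of topical JAK inhibitor treatment of established AA, which is read here as alopecia areata. The arms are labelled jak1i, jak3i and PBS. The jak1i and jak3i arms were sampled at 0, 6, 12 and 24 weeks and the PBS arm at 0, 6 and 12 weeks (24-week PBS skin was not analysed here), with 3 arrays in each group except 2 in each inhibitor group at 24 weeks. The inhibitors are known only by these codes, and the sources used here state no dose, sex or age of the mice. Each array at 0 weeks carries the label of the arm it belongs to, and PBS skin is diseased skin of the same strain, so no group is skin of healthy mice. Replicates are described as biological in the series text, and whether the same animals were sampled repeatedly is not stated.

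The dermal papilla is a cluster of mesenchymal cells at the base of the hair follicle. It signals to the epithelial matrix above it, which divides during the growth phase of the hair cycle (anagen) and makes the shaft, and it shrinks to a compact ball when the follicle rests (telogen). Wnt signalling between papilla and epithelium is one of the main routes of this exchange. Rspo3 encodes R-spondin 3, a secreted protein that strengthens Wnt signals through LGR receptors, and Wif1 encodes a secreted protein that binds Wnt ligands and blocks them. Sox2 and Sox18 are transcription factor genes, the first active in papillae of some hair types and in Schwann and Merkel cells, the second in papillae during follicle development and in endothelium. Corin encodes a membrane serine protease used as a papilla marker, Alpl encodes tissue-nonspecific alkaline phosphatase, whose activity stains the papilla, Vcan encodes the matrix proteoglycan versican, and Crabp1 encodes a cytosolic protein that binds retinoic acid.

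Of the 8 genes, 6 are measured by 1 probe set and the other two by several. For Rspo3 the probe set used ranged over 2.78 log2 units across the arrays, while its second probe set ranged over 0.7 and did not follow it (Pearson r = -0.08 over 31 arrays). Vcan has 8 probe sets, of which 3 varied together, with r of 0.93 and 0.9 to the one used, and the other 5 had means of at most 3.69 and ranges of at most 0.65. With a filter that asks for at least 2 arrays above 6.177, the median of all values, 6 of the 8 genes stay in, and Sox2 and Alpl do not, so both were measured at low levels. All levels below are log2 RMA values, on which 1 unit is a doubling, and since probe sets differ in brightness, levels are compared between arrays and not between genes. In whole skin, fewer cells of a type and less RNA per cell cannot be told apart.

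Promoter windows from RefSeq (build GRCm38.p6, 250 bases before to 50 after the annotated start) were found for 6 of the 8 genes, in 7 windows. They are shown for a pair of genes whose levels were higher in inhibitor-treated skin, Crabp1 and Sox2, and for a pair whose levels followed the hair matrix, Wif1 and Corin, as described below. Each is written 5′ to 3′ on the strand of the gene, and capitals mark matches to the motifs searched.
Crabp1, chr9:54764498-54764797, plus strand: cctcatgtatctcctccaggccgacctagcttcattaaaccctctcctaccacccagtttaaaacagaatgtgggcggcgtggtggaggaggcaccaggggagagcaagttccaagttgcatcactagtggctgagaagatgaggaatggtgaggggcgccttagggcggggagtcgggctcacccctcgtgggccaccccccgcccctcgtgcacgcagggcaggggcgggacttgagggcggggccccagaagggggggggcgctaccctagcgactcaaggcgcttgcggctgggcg
Sox2, chr3:34649745-34650044, plus strand: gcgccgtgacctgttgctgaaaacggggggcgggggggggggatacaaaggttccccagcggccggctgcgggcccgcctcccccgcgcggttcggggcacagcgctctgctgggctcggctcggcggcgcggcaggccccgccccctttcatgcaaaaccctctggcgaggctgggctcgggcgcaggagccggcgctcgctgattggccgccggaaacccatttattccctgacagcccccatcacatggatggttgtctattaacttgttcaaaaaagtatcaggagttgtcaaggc
Wif1, chr10:121033754-121034053, plus strand: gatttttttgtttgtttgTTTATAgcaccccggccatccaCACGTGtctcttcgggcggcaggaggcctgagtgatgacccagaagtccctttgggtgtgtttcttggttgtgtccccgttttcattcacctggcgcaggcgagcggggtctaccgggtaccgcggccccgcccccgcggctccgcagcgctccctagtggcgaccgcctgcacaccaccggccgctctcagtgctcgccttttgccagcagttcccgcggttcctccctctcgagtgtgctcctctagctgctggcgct
Corin, chr5:72504491-72504790, minus strand: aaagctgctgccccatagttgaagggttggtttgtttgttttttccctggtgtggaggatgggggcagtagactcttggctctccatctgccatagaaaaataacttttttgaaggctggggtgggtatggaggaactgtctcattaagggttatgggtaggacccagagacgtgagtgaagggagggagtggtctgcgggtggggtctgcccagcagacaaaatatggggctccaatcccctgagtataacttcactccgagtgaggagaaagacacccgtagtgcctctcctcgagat
The Crabp1, Sox2 and Wif1 windows are rich in G and C (65%, 66.3% and 63%, with 17, 27 and 25 CG dinucleotides), whereas the Corin window has 51.7% and 5, against medians of 52.7% and 7 over 32851 windows. A TCF/LEF motif (CTTTGA, on either strand), which 16% of all windows hold, was in 0 of the 7 member windows. The same count of 0 held for a SOX motif (AACAAT, in 10.7% of windows) and a STAT motif (TTCNNNGAA, in 8.3%). Wif1 has a CACGTG box (7.15% of windows) and, like the second Alpl window, a TATAAA match on the reverse strand (13.6% of windows), both well upstream of the start. The 5 motifs overlapped each other in none of these windows.

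Some features of the whole series bear on these genes. A list of 19 measured hair shaft genes stood above its mean over the arrays in all 9 arrays at 0 weeks (0.23 to 2.58 in jak1i, 0.98 to 2.65 in jak3i and 0.85 to 1.38 in PBS, log2 list means). At 12 weeks it lay at -2.62 to -1.06 in jak1i and -3.39 to -1.12 in jak3i, against 0.86 to 2.35 in PBS. Of 12 cytotoxic lymphocyte genes, 11 fell in jak1i and 12 in jak3i against PBS at 12 weeks. Skeletal muscle genes were low in the PBS arrays at 12 weeks (list means -5.66 to -2.81, against -0.55 to 1.63 in all other groups). These 3 arrays stand apart in that respect, and with the muscle list mean in the fit 0 of all genes were called in either inhibitor against PBS at 12 weeks. That list mean nearly marks the PBS group at 12 weeks, so this fit can hardly separate the covariate from the comparison. The standard error of Sox18 in jak3i against PBS at 12 weeks, for example, went from 0.35 to 0.72. Calls lost in this way therefore decide nothing. The arrays correlated with each other at 0.9352 or more, with 0 identical pairs.

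**Figure D1:**
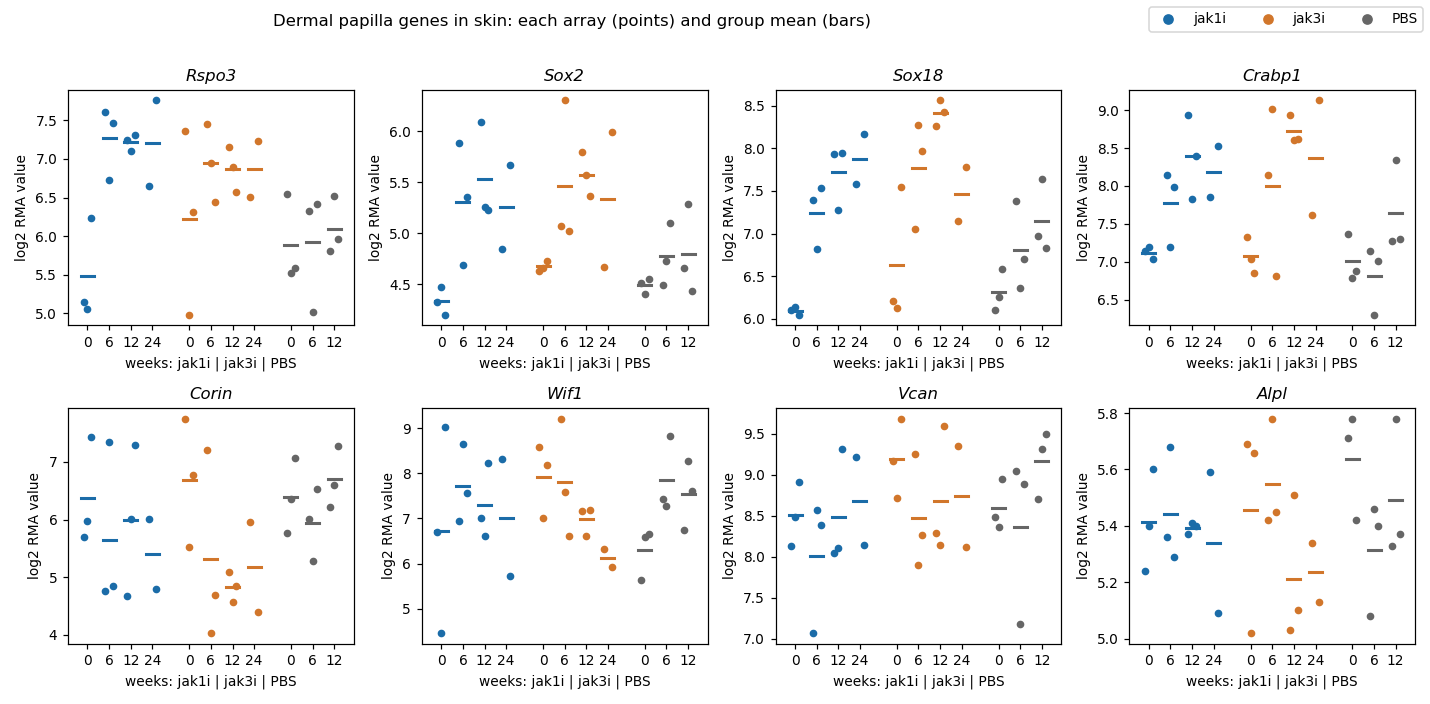
Log2 RMA values (vertical axis) of the 8 genes in each of 31 arrays, by arm and week (horizontal axis); points are arrays and bars are group means. Rspo3, Sox2, Sox18 and Crabp1 have higher group means in both inhibitor arms at 12 weeks than at 0 weeks, with jak3i at 12 weeks reaching 8.26 to 8.56 for Sox18, while Corin, Wif1 and Vcan spread widely within groups.

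Against PBS at 12 weeks, 1 of the 8 genes changed in jak3i, Sox18, and 0 changed in jak1i in limma, at a Benjamini-Hochberg adjusted p under 0.05 over all genes. The background was 17.3% of all genes called in jak3i and 13.4% in jak1i, and 4 and 2 of the 8 genes had an unadjusted p under 0.05, against 33.5% and 29.9% of all genes. The 3 arrays of each group did not overlap for 5 of the 8 genes in jak3i and 1 in jak1i, against 38.3% and 36.2% of all genes. At 6 weeks 0 of the 8 genes changed in either inhibitor against PBS, with a background of 1.36% for jak1i and 1.94% for jak3i (2 and 3 of the 8 genes under an unadjusted p of 0.05, against 17.4% and 16.9% of all genes). Groups at 6 weeks did not overlap for 2 of the 8 genes in jak1i and 1 in jak3i, against 18.5% and 15.6% of all genes. The jak1i and jak3i comparisons share their PBS arrays. Against its own start, the jak1i arm had 3 of 8 genes higher at 12 weeks (Rspo3, Sox2 and Sox18; background 16.3% of all genes in either direction, 9.76% higher) and 2 of 8 at 6 weeks (Rspo3 and Sox18; background 12.4%, 5.94% higher). In that arm 4 of 8 genes had an unadjusted p under 0.05 at 12 weeks, against 32.7% of all genes, and 3 of 8 at 6 weeks, against 27.2%. In jak3i skin 2 of 8 were higher at 12 weeks than at 0 weeks (Sox18 and Crabp1; background 10.3%, 7.41% higher; 4 of 8 under an unadjusted p of 0.05 against 32.2%) and 0 of 8 at 6 weeks (background 3.15%, and 3 of 8 under an unadjusted p of 0.05 against 22.2%). At 12 against 0 weeks 4 of the 8 genes had groups without overlap in jak1i and 4 in jak3i, close to the background of 40.1% and 38.9% of all genes. In PBS skin 0 of 8 genes changed at 12 against 0 weeks (background 2.28%, 1 of 8 under an unadjusted p of 0.05 against 16.3%) and 0 at 6 against 0 weeks (background 0.0055%, 0 of 8 under an unadjusted p of 0.05 against 9.82%). At 0 weeks 0 of the 8 genes passed in either inhibitor arm against PBS, with a smallest adjusted p of 0.999 in jak1i and 0.712 in jak3i, a background of 0% in both, and 0 of 8 genes under an unadjusted p of 0.05, against 5.04% of all genes in jak1i and 7.57% in jak3i. Groups at 0 weeks did not overlap for 0 of the 8 genes in jak1i and 2 in jak3i, against 12.2% and 15.3% of all genes, and those were Sox2 (difference 0.18) and Wif1 (difference 1.63, 95% interval -0.16 to 3.42).

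**Figure D2:**
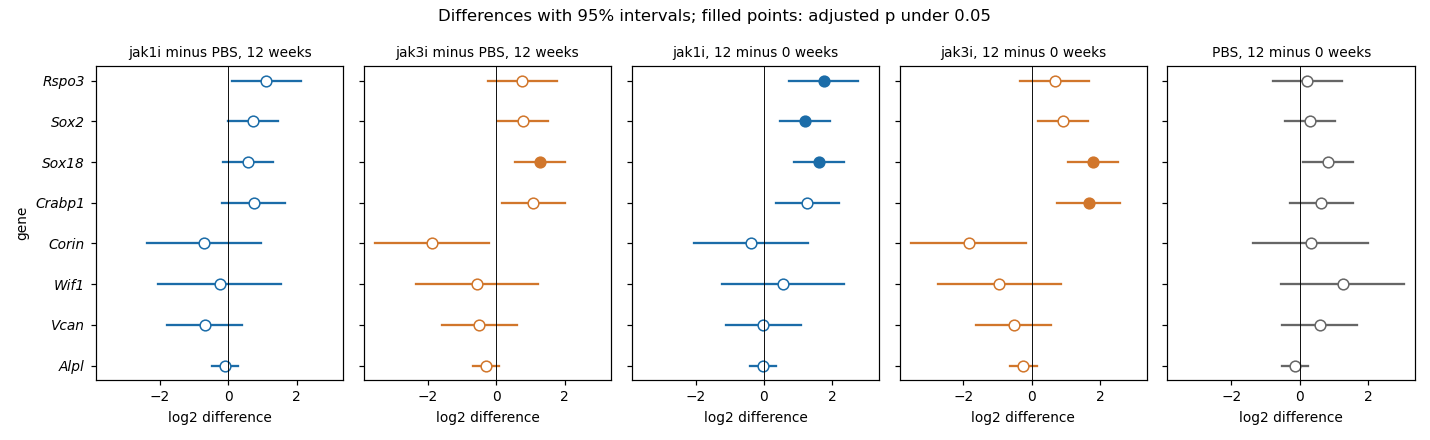
Log2 differences (horizontal axis) of the 8 genes (vertical axis) in 5 comparisons, as points with 95% intervals; filled points passed an adjusted p of 0.05 in limma. Sox18 is filled in 3 panels, at 1.27 (jak3i minus PBS), 1.62 (jak1i, 12 minus 0 weeks) and 1.78 (jak3i, 12 minus 0 weeks), and no gene is filled in the PBS panel.

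Sox18 rose in both inhibitor arms relative to their own start. In jak1i skin its log2 values were 6.10, 6.14 and 6.05 at 0 weeks, 7.39, 6.82 and 7.53 at 6 weeks, 7.93, 7.28 and 7.94 at 12 weeks and 7.58 and 8.17 at 24 weeks. In jak3i skin they were 6.21, 6.13 and 7.55 at 0 weeks, 7.05, 8.27 and 7.97 at 6 weeks, 8.26, 8.56 and 8.42 at 12 weeks and 7.15 and 7.78 at 24 weeks. In PBS skin they were 6.11, 6.26 and 6.59 at 0 weeks, 7.38, 6.36 and 6.70 at 6 weeks and 6.97, 7.64 and 6.83 at 12 weeks. Every jak3i array at 12 weeks lay above every PBS array of any week, whereas jak1i and PBS overlapped at 12 weeks. Sox18 at 12 against 0 weeks rose 3.07-fold in jak1i (log2 difference 1.62, SE 0.35, adjusted p = 0.00541) and 3.45-fold in jak3i (1.78, SE 0.35, adjusted p = 0.0182). It was also 2.41-fold higher in jak3i than in PBS at 12 weeks (1.27, SE 0.35, adjusted p = 0.0194), and in jak1i the difference of 0.57 (95% interval -0.16 to 1.30, adjusted p = 0.288) did not pass. It was already higher at 6 than at 0 weeks in jak1i (1.15, SE 0.35, adjusted p = 0.0361), and at 24 against 0 weeks as well (1.78, SE 0.39, adjusted p = 0.0381), which was the 1 call among the 8 genes there against a background of 1.19% (1.03% higher; 4 of 8 under an unadjusted p of 0.05 against 20.4%). In jak3i the difference at 24 against 0 weeks was 0.83 (adjusted p = 0.28), where 0 of 8 genes passed (background 0.11%, and 2 of 8 under an unadjusted p of 0.05 against 17.2% of all genes). In PBS skin the difference at 12 against 0 weeks was 0.83, without overlap of the groups, and did not pass (adjusted p = 0.241, background of groups without overlap 23.9%).

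The Sox18 pattern ran with that of endothelial genes, a list of 16 measured genes that does not hold it. Over the 31 arrays Sox18 and the list mean correlated at r = 0.93 (rho 0.92), and at 0.87 for deviations from the group means. Other lists ran with Sox18 as well, with r of 0.84 for fat cell genes (0.76 within groups), 0.83 for Schwann cell genes (0.63), 0.80 for dermal fibroblast genes (0.65) and -0.79 for cytotoxic lymphocyte genes (-0.60). In the endothelial list, which includes the related genes Sox7 and Sox17, 12 of 16 genes rose in jak3i against PBS at 12 weeks (median 1.28, all genes -0.03) and 13 of 16 at 12 against 0 weeks in jak3i (median 1.5). In jak1i at 12 against 0 weeks 4 rose and 2 fell (median 0.79). Against PBS at 12 weeks 0 rose and 2 fell in jak1i (median 0.52, 12.5% of the list called against 13.4% of all genes). The lowest difference in jak3i against PBS at 12 weeks was -1.24 and was not called. In the list Tie1 and Tek, receptor genes of blood vessels, rose by 1.47 (SE 0.26, adjusted p = 0.00156) and 1.51 (SE 0.43, adjusted p = 0.0216) in jak3i against PBS at 12 weeks, and Vwf, the von Willebrand factor gene, by 1.94 (SE 0.39, adjusted p = 0.00408). The endothelial list means at 12 weeks were 0.68 to 1.06 in jak3i and -0.07 to 0.57 in jak1i, against -0.40 to 0.11 in PBS. With that list mean as a covariate, chosen after the data had been seen, the Sox18 difference was 0.18 (SE 0.23, adjusted p = 0.838) in jak3i against PBS at 12 weeks, and 0.47 (SE 0.25, adjusted p = 1) in jak3i at 12 against 0 weeks. In jak1i it was 0.48 (adjusted p = 0.211) at 6 weeks and 0.87 (adjusted p = 0.34) at 24 weeks against 0 weeks, and only the difference at 12 against 0 weeks kept its call (0.88, SE 0.20, adjusted p = 0.0298). The endothelial list means did not overlap between the compared groups in any of these comparisons (-0.63 to 0.07 in jak3i at 0 weeks, for example). These fits can hardly separate the covariate from the comparison, so the calls lost decide nothing. The jak3i call against PBS was also lost with the hair shaft list mean (0.55, SE 0.31, adjusted p = 0.39) or that of skeletal muscle as a covariate (0.33, SE 0.72, adjusted p = 1), and without jak3i at 12 weeks replicate 1 or 2 or PBS at 12 weeks replicate 1 or 3 (adjusted p of 0.0532, 0.0626, 0.0707 and 0.0891). The muscle list nearly marks the PBS arrays at 12 weeks, and the hair shaft list means of jak3i and PBS at 12 weeks did not overlap. Neither fit can therefore decide whether this call holds. The call at 12 against 0 weeks was lost in jak3i without replicate 2 at 0 weeks (1.53, adjusted p = 0.122) or replicate 1 or 2 at 12 weeks (0.0744 and 0.0592), and in jak1i it held without any single array. In jak1i the 6-week call was lost without any of the 3 arrays at 0 weeks or replicate 1 or 3 at 6 weeks (adjusted p of 0.0751 to 0.134), and the 24-week call without any of the 3 arrays at 0 weeks or replicate 2 at 24 weeks (0.057 to 0.725).

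Rspo3 rose in the jak1i arm. Its log2 values there were 5.15, 5.05 and 6.24 at 0 weeks, 7.61, 6.73 and 7.47 at 6 weeks, 7.24, 7.10 and 7.31 at 12 weeks and 6.65 and 7.76 at 24 weeks. In jak3i skin they were 7.36, 4.98 and 6.31 at 0 weeks, 7.45, 6.95 and 6.44 at 6 weeks, 7.16, 6.89 and 6.57 at 12 weeks and 6.51 and 7.23 at 24 weeks. In PBS skin they were 6.54, 5.52 and 5.59 at 0 weeks, 6.33, 5.01 and 6.42 at 6 weeks and 5.81, 6.52 and 5.96 at 12 weeks. All inhibitor-treated arrays at 6 and 12 weeks stood above all PBS arrays of the same week, and the jak3i arm already had a high array at 0 weeks, replicate 1 at 7.36. In jak1i Rspo3 rose 3.34-fold at 12 against 0 weeks (1.74, SE 0.49, adjusted p = 0.0193), and by 1.79 on the log2 scale at 6 against 0 weeks (SE 0.49, adjusted p = 0.0215). In jak3i the difference at 12 against 0 weeks was 0.66 (95% interval -0.35 to 1.66). The differences from PBS at 12 weeks were 1.12 in jak1i (95% interval 0.11 to 2.13, adjusted p = 0.125) and 0.77 in jak3i (95% interval -0.23 to 1.78, adjusted p = 0.274), and neither passed although the groups did not overlap. With the arrays of those 2 groups alone in the fit, the jak1i difference passed (adjusted p = 0.0205). In jak1i the call at 12 against 0 weeks was lost without replicate 1 or 2 at 0 weeks or replicate 1 or 3 at 12 weeks (adjusted p of 0.0779, 0.0703, 0.0635 and 0.0573). It was also lost with the mean of both Rspo3 probe sets, where the difference was 0.76 (adjusted p = 0.0505). The call at 6 against 0 weeks was lost without replicate 1 or 2 at 0 weeks (0.0806 and 0.0785) or replicate 1 or 3 at 6 weeks (0.0997 and 0.0753), and with only the compared arrays in the fit (adjusted p = 0.0548). With the endothelial list mean as a covariate both jak1i calls were lost, at 1.49 (adjusted p = 0.137) at 12 weeks and 1.56 (adjusted p = 0.119) at 6 weeks, and with that of skeletal muscle the 12-week call was lost (1.57, adjusted p = 0.0638). The endothelial list means of the compared groups did not overlap, so the calls lost with that covariate decide nothing.

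Sox2 was uniform at the start, and it rose in jak1i skin. All 9 arrays at 0 weeks lay between 4.20 and 4.73. In jak1i skin the values were 5.88, 4.69 and 5.35 at 6 weeks, 6.09, 5.26 and 5.23 at 12 weeks and 4.84 and 5.67 at 24 weeks. In jak3i skin they were 5.07, 6.30 and 5.02 at 6 weeks, 5.79, 5.57 and 5.36 at 12 weeks and 4.67 and 5.99 at 24 weeks. In PBS skin they were 4.49, 4.73 and 5.10 at 6 weeks and 4.66, 5.28 and 4.43 at 12 weeks. At 12 weeks both inhibitor arms lay wholly above all arrays at 0 weeks, and jak3i also above all PBS arrays of that week, while jak1i overlapped with PBS. Sox2 rose in jak1i at 12 against 0 weeks by 1.20 on the log2 scale (SE 0.35, adjusted p = 0.0255). No fold is given, because the values at 0 weeks lie in the range of dim probe sets such as the second one of Rspo3 (4.19 to 4.90), and whether they are above background was not tested. Since probe sets differ in brightness, that range is a rough guide only. This call was lost without replicate 1 or 3 at 0 weeks (0.0703 and 0.0689) or replicate 1 at 12 weeks (0.92, adjusted p = 0.141). It was also lost with the endothelial list mean (0.72, adjusted p = 0.254) or that of skeletal muscle (1.08, adjusted p = 0.0786) as a covariate. Endothelial list means did not overlap between these groups, so the loss with that covariate decides nothing. In jak3i the difference was 0.90 (95% interval 0.17 to 1.63, adjusted p = 0.0894), which passed with only the compared arrays in the fit (adjusted p = 0.0355). Relative to PBS at 12 weeks it was 0.74 in jak1i (adjusted p = 0.165) and 0.78 in jak3i (adjusted p = 0.123). Since Sox2 is also a gene of Schwann and Merkel cells, their lists were read beside it. Its correlation with the mean of 7 measured Schwann cell genes was r = 0.86 (rho 0.86, 0.68 within groups). In jak1i at 12 against 0 weeks 4 of these 7 genes rose (57.1% against 16.3% of all genes), among them the myelin genes Mbp by 2.0 (SE 0.51, adjusted p = 0.0119) and Pmp22 by 1.33 (SE 0.32, adjusted p = 0.00923). Other lists ran with Sox2 as well, with r of 0.77 for endothelial, 0.73 for fat cell, -0.79 for cytotoxic lymphocyte and -0.80 for hair shaft genes. Nor was the Schwann cell list particular to Sox2, since it correlated with Sox18 at 0.83, Rspo3 at 0.75 and Crabp1 at 0.73. Schwann cell list means at 12 weeks were 0.06 to 0.58 in jak1i and 0.09 to 0.99 in jak3i, against -0.84 to 0.02 in PBS. The mean of the 10 Merkel cell genes had the opposite sign (r = -0.51). At 12 weeks it was -0.42 to -0.11 in jak1i and -0.39 to 0.36 in jak3i, against -0.22 to 0.42 in PBS. Single genes of this list went both ways against PBS at 12 weeks. In jak1i 1 rose and 2 fell (30% of the list), and in jak3i 1 rose and 1 fell (20%), against 13.4% and 17.3% of all genes. Atoh1, which defines that cell type, stayed between 3.77 and 4.45 in all arrays. It is a dim gene here (mean 4.12, percentile 10.3 of all genes), so its flat course says little about these cells. Some other genes of the list varied over several log2 units. The part of these cells in the Sox2 result was not tested.

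Crabp1 rose in jak3i skin. Its log2 values there were 7.33, 7.03 and 6.85 at 0 weeks, 8.15, 9.02 and 6.81 at 6 weeks, 8.94, 8.61 and 8.62 at 12 weeks and 7.61 and 9.13 at 24 weeks. In jak1i skin they were 7.14, 7.19 and 7.03 at 0 weeks, 8.15, 7.20 and 7.99 at 6 weeks, 8.94, 7.83 and 8.40 at 12 weeks and 7.85 and 8.53 at 24 weeks. In PBS skin they were 7.36, 6.78 and 6.88 at 0 weeks, 7.14, 6.30 and 7.01 at 6 weeks and 7.27, 8.34 and 7.30 at 12 weeks. Both inhibitor arms at 12 weeks lay above all arrays at 0 weeks, and PBS at 12 weeks had 1 high array, replicate 2. At 12 against 0 weeks Crabp1 was 3.15-fold higher in jak3i (1.66, SE 0.44, adjusted p = 0.0304), and in jak1i the difference of 1.27 (SE 0.44, adjusted p = 0.0523) just missed the threshold. The differences from PBS at 12 weeks were 1.09 in jak3i (95% interval 0.17 to 2.0, adjusted p = 0.0886) and 0.75 in jak1i (95% interval -0.17 to 1.67, adjusted p = 0.266). Without PBS at 12 weeks replicate 2 the jak3i difference was 1.44 and passed (adjusted p = 0.0389). The jak3i call at 12 against 0 weeks held without replicate 3 at 12 weeks, and was lost without any other single array of the compared groups (adjusted p of 0.0519 to 0.13). It was also lost with the endothelial list mean as a covariate (0.81, adjusted p = 1) and with that of skeletal muscle (1.54, adjusted p = 0.0574). Since endothelial list means did not overlap between these groups, the loss with that covariate decides nothing. With only the compared arrays in the fit the jak1i difference at 12 against 0 weeks passed (adjusted p = 0.0212).

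Corin did not pass in any comparison, and its spread within groups was among the widest here. The pooled SD within groups was 1.05, against 0.18 for the median gene. In jak3i skin its log2 values were 7.75, 5.52 and 6.77 at 0 weeks, 7.20, 4.03 and 4.69 at 6 weeks, 5.09, 4.56 and 4.85 at 12 weeks and 5.95 and 4.39 at 24 weeks. In jak1i skin they were 5.69, 5.98 and 7.43 at 0 weeks, 4.76, 7.35 and 4.85 at 6 weeks, 4.67, 6.01 and 7.30 at 12 weeks and 6.01 and 4.79 at 24 weeks. In PBS skin they were 5.76, 6.35 and 7.06 at 0 weeks, 6.01, 5.28 and 6.53 at 6 weeks and 6.22, 6.60 and 7.28 at 12 weeks. All 3 jak3i arrays at 12 weeks lay below all PBS arrays of any week, whereas jak1i at 12 weeks spanned 4.67 to 7.30. The jak3i values of 4.56 and 4.85 and the jak1i value of 4.67 at 12 weeks lie in the range of the dim second Rspo3 probe set (4.19 to 4.90). Low Corin values of both arms at 6 and 24 weeks lie in that range or below it. The range is a rough guide only, since probe sets differ in brightness. Whether these Corin values are above background was not tested, so the size of the differences below is uncertain. The difference from PBS at 12 weeks was -1.87 in jak3i (95% interval -3.54 to -0.20, adjusted p = 0.107) and -0.71 in jak1i (95% interval -2.38 to 0.96, adjusted p = 0.601). With the arrays of those groups alone in the fit, the jak3i difference passed (adjusted p = 0.0195). It was 0.02 (SE 0.60, adjusted p = 0.994) once the hair shaft list mean entered the fit as a covariate. That list mean did not overlap between these groups, so the fit can hardly separate it from the comparison.

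Wif1 and Vcan also passed in no comparison. Wif1 had the widest range of the 8 genes, 4.74 log2 units, with 6.69, 4.46 and 9.03 in the 3 jak1i arrays at 0 weeks alone. Its group means in jak3i skin were 7.93 ± 0.82 at 0 weeks, 7.80 ± 1.32 at 6 weeks and 6.98 ± 0.34 at 12 weeks (SD, n = 3 each), and at 24 weeks the values were 6.33 and 5.92. In PBS skin the means were 6.30 ± 0.57 at 0 weeks, 7.84 ± 0.86 at 6 weeks and 7.54 ± 0.76 at 12 weeks (SD, n = 3 each), and both later groups lay wholly above 0 weeks, which held for 17.1% of all genes in either direction at 6 weeks and 23.9% at 12 weeks. The PBS difference at 12 against 0 weeks was 1.25 (95% interval -0.54 to 3.04) and the jak3i difference -0.95 (95% interval -2.73 to 0.84). In jak1i skin at 6, 12 and 24 weeks Wif1 ranged between 5.72 and 8.66. Vcan lay between 7.07 and 9.68 over all arrays, and its differences from PBS at 12 weeks were -0.69 in jak1i and -0.50 in jak3i (adjusted p of 0.412 and 0.539). Alpl lay between 5.02 and 5.78 over all 31 arrays, a narrow range of 0.76 against 0.85 for the median gene, and its largest difference in the comparisons of the inhibitors with PBS was -0.28 (jak3i at 12 weeks, adjusted p = 0.297).

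The 8 genes fell into more than 1 pattern. Rspo3, Sox2, Sox18 and Crabp1 correlated with each other at r of 0.63 to 0.86 over the 31 arrays, and Corin, Wif1 and Vcan at 0.41 to 0.63. Between these sets r ran from -0.68 (Sox2 and Corin) to 0.24 (Rspo3 and Wif1). The arrays share groups, so these values are descriptions and carry no p. For deviations from the group means, Sox2 and Crabp1 kept r = 0.81, Corin with Vcan and Corin with Wif1 had 0.72 each, and Rspo3 with Sox18 dropped to 0.24. The differences between the 11 groups made up 58.4% to 78.1% of the variation of the first set and 26.7% to 34.2% of that of the second, against 47.9% for the median gene. With 11 group means and 31 arrays such shares stand well above 0 even where groups do not differ, and they were not corrected for this. The shares of the second set are thus no sign of an effect of arm or week. Alpl followed neither set, with |r| of at most 0.37.

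Corin and Wif1 ran with genes of the follicle epithelium array by array. A list of 8 hair matrix genes, which includes Shh, the sonic hedgehog gene, and the proliferation genes Mki67 and Top2a, correlated with Corin at r = 0.87 (rho 0.87, 0.88 within groups, 0.87 without the 2 arrays farthest from the median). With Wif1 it correlated at 0.66 (rho 0.69, 0.81 within groups, 0.62 without those arrays). Wif1 ran about as closely with the mean of 29 Wnt and R-spondin pathway genes (r = 0.65). In the jak3i group at 6 weeks, replicate 1 had a hair shaft list mean of 3.30 and replicates 2 and 3 had -2.80 and -2.37. Corin was 7.20 in that replicate 1 and 4.03 and 4.69 in the other two, and Wif1 was 9.21 against 7.59 and 6.60. The jak1i group at 6 weeks held the same contrast, with 7.35 for Corin and 8.66 for Wif1 in replicate 2, where the hair shaft list stood at 2.68. In that same array Sox2 (4.69), Sox18 (6.82), Rspo3 (6.73) and Crabp1 (7.20) were the lowest of their group. In replicate 1 of jak3i at 6 weeks the same did not hold for all of them, since Sox18 (7.05) was the lowest of its group but Rspo3 (7.45) was the highest, and Sox2 (5.07) and Crabp1 (8.15) lay between the other two. Corin and Wif1 did not follow the hair shaft list in jak1i at 12 weeks. There replicate 3 had the highest Corin (7.30) and Wif1 (8.23), with a hair shaft list mean of -2.14, below replicate 2 (-1.06). Its hair matrix list mean, 0.33, was the highest of that group. Over all arrays the hair shaft list correlated at -0.80 with Sox2, -0.79 with Sox18, -0.69 with Crabp1 and -0.48 with Rspo3, at 0.79 with Corin, and at only 0.45 with Wif1 (rho 0.49). With that list mean added to the fit as a covariate, Sox18 in jak1i at 12 against 0 weeks stood at 1.0 (adjusted p = 0.0609), Sox2 at 0.60 (adjusted p = 0.263) and Rspo3 at 1.67 (adjusted p = 0.093). In jak3i it left Crabp1 at 1.14 (adjusted p = 0.626) and Sox18 at 1.01 (adjusted p = 0.576), with 0 of all 18193 genes called. Hair shaft list means did not overlap between 12 and 0 weeks in either inhibitor arm, so the calls lost in these fits decide nothing. The part of the changing follicle epithelium in these differences was not tested further.

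**Figure D3:**
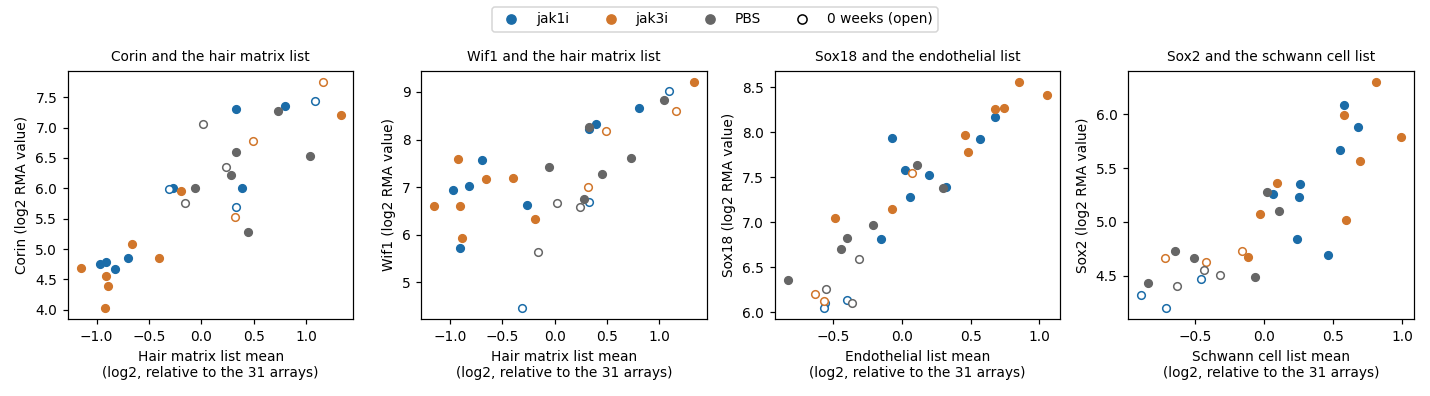
Log2 RMA values of Corin, Wif1, Sox18 and Sox2 (vertical axes) against list means of the hair matrix, endothelial and Schwann cell lists (horizontal axes, log2 relative to the 31 arrays); each point is an array, coloured by arm, open at 0 weeks. Corin and Sox18 follow their lists closely (r of 0.87 and 0.93), Sox2 at 0.86 and Wif1 at 0.66.

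**Figure D4:**
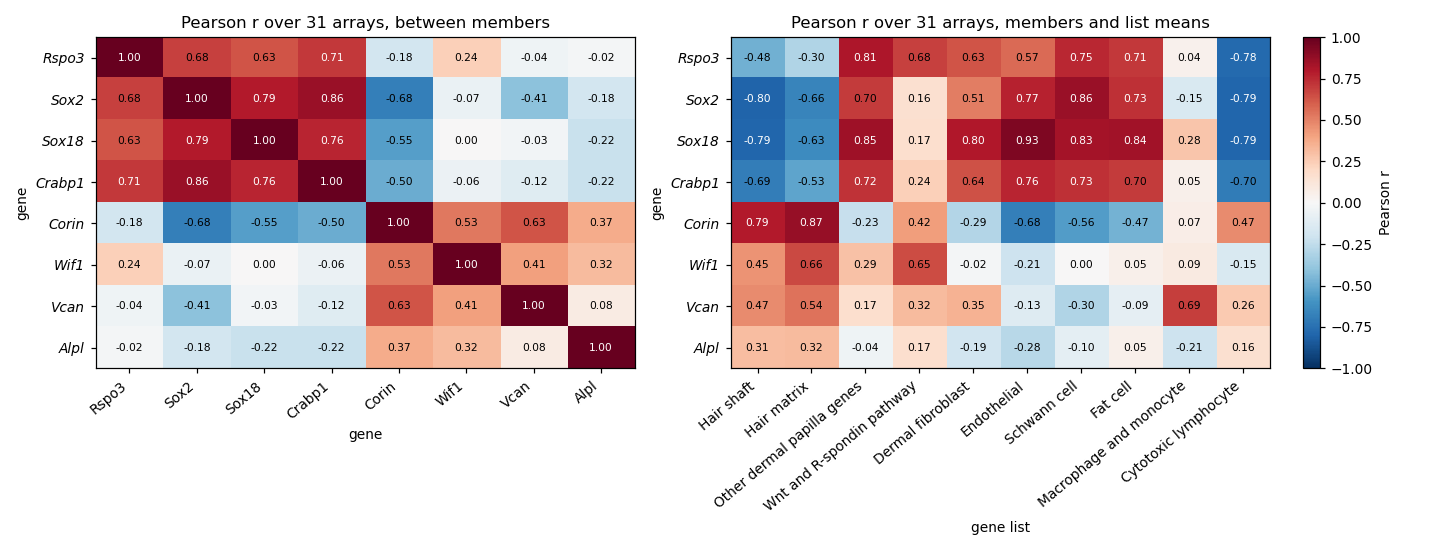
Pearson correlations over 31 arrays among the 8 genes (left) and of the 8 genes (vertical axis) with list means (horizontal axis, right), in colour and as numbers. Rspo3, Sox2, Sox18 and Crabp1 form a block of 0.63 to 0.86, and Corin has the opposite sign to them with the hair shaft and endothelial lists (0.79 and -0.68).

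Other genes linked to the papilla, a list of 29 measured genes without the 8, changed in both directions. In jak1i at 12 against 0 weeks 9 rose and 2 fell (median 0.50, all genes -0.04), and in jak3i 4 rose and 1 fell (median 0.27, all genes 0.00), which is 37.9% and 17.2% of the list against 16.3% and 10.3% of all genes. Lists of other cell types moved alongside. At 12 against 0 weeks 7 of 10 fat cell genes rose in jak1i (median 1.98) and 0 in jak3i (median 1.32, 8 under an unadjusted p of 0.05), and 4 of 14 dermal fibroblast genes rose in jak1i (median 0.69) and 1 in jak3i (median 0.44). Fat cell list means at 12 weeks were 0.39 to 1.35 in jak1i and 0.28 to 1.87 in jak3i, against -1.08 to 0.48 in PBS, and their part in the papilla list was not tested. Relative to PBS at 12 weeks 4 genes of the papilla list rose and 2 fell in jak1i (20.7% of the list against 13.4% of all genes). In jak3i 5 rose and 2 fell (24.1% against 17.3%). In PBS at 12 against 0 weeks 0 genes of that list changed in limma (1 under an unadjusted p of 0.05), where only 2.28% of all genes were called (16.3% under an unadjusted p of 0.05). The scaffold protein gene Akap12 had log2 values of 8.77, 8.80 and 9.08 in jak1i and 8.97, 9.19 and 8.77 in jak3i at 12 weeks, against 6.78, 7.67 and 6.73 in PBS. Its groups did not overlap, and it rose by 1.82 in jak1i (SE 0.46, adjusted p = 0.0145) and 1.92 in jak3i (SE 0.46, adjusted p = 0.0102). Igfbp3, which encodes a protein that binds insulin-like growth factors, rose by 2.0 (SE 0.55, adjusted p = 0.02) and 1.67 (SE 0.55, adjusted p = 0.0395) in the same comparisons. The Notch target gene Hey1 rose by 0.72 and 0.75 and the stem cell surface gene Prom1 by 1.12 and 1.52 (adjusted p of 0.0189, 0.0147, 0.0208 and 0.00408). Inhba, the gene of an activin subunit, fell to 7.12, 7.66 and 7.98 in jak1i and 7.94, 6.98 and 7.82 in jak3i at 12 weeks, against 9.07, 8.38 and 9.21 in PBS (-1.30 and -1.31, SE 0.37 each, adjusted p of 0.0249 and 0.022). Fbln7, an extracellular matrix gene, fell by 1.07 in jak1i (SE 0.30, adjusted p = 0.0214), with -0.26 in jak3i. In jak1i at 12 against 0 weeks the transcription factor genes Foxd1 and Tbx18 rose by 1.75 and 1.0, the Wnt regulator gene Dkk2 by 1.78 and the leptin receptor gene Lepr by 2.21 (adjusted p of 0.00424, 0.011, 0.00716 and 0.0111). The list mean correlated with Sox18 at 0.85, Rspo3 at 0.81, Crabp1 at 0.72 and Sox2 at 0.70, and with Corin at -0.23.

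Of 29 measured genes of the Wnt and R-spondin pathway, 5 rose and 0 fell in jak1i at 12 against 0 weeks (median 0.05), and 2 rose and 1 fell in jak3i (median -0.22). These are 17.2% and 10.3% of the list, against 16.3% and 10.3% of all genes, so the list as a whole was called about as often as the other genes and the genes below are given singly. Lgr6, a gene for an R-spondin receptor, had log2 values of 9.61, 8.93 and 9.55 in jak1i at 12 weeks, against 6.87, 7.39 and 7.63 at 0 weeks, and rose by 2.07 (SE 0.44, adjusted p = 0.00513). In jak3i its difference was 1.36 (SE 0.44, adjusted p = 0.0502), and relative to PBS at 12 weeks it rose by 1.56 in jak1i and 1.45 in jak3i (adjusted p of 0.0225 and 0.0286). Axin2, a target gene of Wnt signalling, rose by 0.63 in jak1i (SE 0.20, adjusted p = 0.0386) and 0.65 in jak3i (SE 0.20, adjusted p = 0.0472) at 12 against 0 weeks, and the ligand gene Wnt3 by 0.90 and 0.84 (adjusted p of 0.0166 and 0.0378). Rspo1, which encodes another R-spondin, rose by 1.47 in jak1i (SE 0.43, adjusted p = 0.0239), and so did Apcdd1, an inhibitor gene of the pathway, by 0.67 (SE 0.21, adjusted p = 0.0329). Rspo2 fell by 0.27 in jak3i (SE 0.09, adjusted p = 0.0468), and in jak1i its difference was 0.05. It was measured at low levels, between 5.05 and 5.53 in all arrays. Against PBS at 12 weeks 1 gene of the list rose in jak1i, Lgr6, and 2 in jak3i, Lgr6 and Sfrp4, which are 3.45% and 6.9% of the list, against 13.4% and 17.3% of all genes. Sfrp4 encodes a secreted Wnt antagonist and rose by 1.90 (SE 0.55, adjusted p = 0.0231).

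The jak1i and jak3i arms were compared with each other at 6, 12 and 24 weeks. In these 3 comparisons 0 of the 8 genes differed, and so did 0 of all genes (background 0% each), with 0 of 8 genes under an unadjusted p of 0.05, against 2.58% of all genes at 6 weeks, 5.97% at 12 weeks and 0.627% at 24 weeks. The smallest adjusted p of the 8 genes was 0.856, for Sox18 at 12 weeks, where jak1i values of 7.28 to 7.94 lay below jak3i values of 8.26 to 8.56 (difference -0.70, 95% interval -1.42 to 0.03), a separation seen for 15.8% of all genes. For Corin at 12 weeks the difference was 1.16 (95% interval -0.51 to 2.83) and for Rspo3 0.35 (95% interval -0.66 to 1.35). Each of these intervals reaches past 1 log2 unit, so a 2-fold difference lies within it. At 24 against 12 weeks 0 of 8 genes changed in either arm (background 0% in jak1i and 0.033% in jak3i), and Sox18 in jak3i had the 1 unadjusted p under 0.05 (-0.95, 95% interval -1.76 to -0.14, adjusted p = 0.961), against 5.16% of all genes, while jak1i had 0 of 8 against 3.35%.

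The change from 0 to 12 weeks in each inhibitor arm was also tested against the change in PBS. In jak1i 0 of 8 genes passed (background 6.85%), and Rspo3 came closest, with a difference of changes of 1.52 (95% interval 0.10 to 2.95, adjusted p = 0.167). In jak3i 0 of 8 passed as well (background 4.55%), with Sox18 at 0.96 (95% interval -0.07 to 1.99, adjusted p = 0.237), Corin at -2.16 (95% interval -4.53 to 0.20) and Wif1 at -2.19 (95% interval -4.72 to 0.34). The Wif1 value includes the difference of 1.63 between jak3i and PBS at 0 weeks. Under an unadjusted p of 0.05 there were 1 of 8 genes in jak1i and 0 in jak3i, against 25.4% and 24.6% of all genes. The rises against 0 weeks are therefore not shown to differ from the course in PBS for any of the 8 genes. Between jak1i and jak3i the changes differed in 0 of 8 genes (background 0%, smallest adjusted p 0.998, and 0 of 8 under an unadjusted p of 0.05 against 4.72%).

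The genes most like each of the 8 over the 31 arrays were named by Pearson correlation of the log2 values. Sox18 was most like Jam3 (0.95), a junction gene, Fam171a1 (0.94) and Npdc1 (0.94). Rspo3 was most like Pogk (0.90), Fam171b (0.89) and Ehbp1 (0.88), and Sox2 was most like Tmtc2 (0.91), the cadherin gene Cdh2 (0.90) and Ankrd24 (0.90). Crabp1 was closest to Tmem255a (0.87), Cavin3 (0.85) and Atl1 (0.85). The second set had other neighbours. Corin was closest to the gene model Gm12446 (0.89), Shh (0.88) and Lrrc15 (0.87). Wif1 was closest to Anp32b (0.87), Plekha8 (0.86) and Rfc4 (0.85), and Vcan to the matrix genes Adam12 (0.86), a metalloproteinase, Col5a2 (0.84), a collagen, and Bgn (0.82), which encodes biglycan. No gene followed Alpl closely, the highest being A230006K03Rik at 0.60, Nags at 0.57 and Otx2os1 at 0.55.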

How the data were processed

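RNA of mouse skin was measured on 31 Affymetrix arrays. The deposited values are log2 values that the authors made with RMA, per the submitters' processing notes. RMA subtracts background, brings the arrays to one distribution and combines the probes of a probe set, and the sources used here give no version of it. Values ran from 2.59 to 14.69, with array medians of 6.05 to 6.24. The number of arrays limits the precision, and scan dates and detection calls were not used here. Of 45101 probe sets, 64 were controls. Of the rest, 34945 named 1 gene symbol in the probe table, which gave 18193 genes, each represented by its probe set of highest mean. A total of 34741 Entrez identifiers matched the gene table.

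A linear model of 11 group means was fitted with limma 3.58.1 in R 4.3.3 (20 residual and 2.5 prior degrees of freedom), and 22 contrasts were tested, with Benjamini-Hochberg adjustment over all genes and a threshold of 0.05. Errors are standard errors of limma, and intervals are 95% intervals. Because the labels do not say whether arrays come from separate animals at each time, p-values measure the spread between these arrays. On values simulated for jak1i against PBS at 12 weeks, with 18193 genes, the fit called 95 of 100 genes changed by 3 log2 units, 77 of 100 changed by 1 and 12 unchanged genes. The simulated noise was independent between genes and few genes were changed, unlike in these data. The rates therefore check the fit and do not carry over to the real arrays.

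The 8 genes and the 14 lists of cell types and pathways were chosen with earlier results of these data known. All 8 genes are named in the text, and of the lists the 4 genes with the smallest adjusted p in the 8 comparisons of an inhibitor with PBS or of 6 or 12 weeks with 0 weeks could be named, or 10 for the papilla and Wnt lists. The 3 genes most like each member were taken by Pearson correlation. Adjusted p-values of limma were recomputed under the settings given in the closing section. Whether equal replicate numbers pair the arrays was checked by the correlation of their deviations from the group means, which ran from -0.47 to 0.49 over 10 pairs of groups and was over 0.1 for all numbers in 1 of them, jak3i with PBS at 12 weeks.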

Additional observations from a re-analysis of the deposited data

How the results depend on the processing

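Of 2884 member differences recomputed under other settings, 2599 kept their sign and their side of the threshold, 57 lost their call, 13 gained one, and 193 changed sign at sizes within their standard error or rounding to 0. No called difference changed sign, and the cause of the changes below was not tested unless fewer samples or genes show it. Of the 8 genes, the number called at 24 against 0 weeks in jak1i was 0 with arrays centred on their medians and 0 with the mean of all probe sets, against 1. With the compared arrays only it was 1 in jak1i (against 0) and 2 in jak3i (against 1) relative to PBS at 12 weeks, 1 in jak1i at 6 against 0 weeks (against 2), 4 in jak1i at 12 against 0 weeks (against 3, with Crabp1) and 3 in jak3i at 12 against 0 weeks (against 2, with Sox2). A covariate of hair shaft genes left 0 in jak3i against PBS at 12 weeks, 1 in jak1i at 6 against 0 weeks, and 0 in jak1i at 12 and at 24 weeks and in jak3i at 12 weeks against 0 weeks. A covariate of skeletal muscle genes left 0 in jak3i against PBS at 12 weeks, and 1 each in jak1i at 6 and 12 weeks and in jak3i at 12 weeks against 0 weeks. In comparisons with PBS at 12 weeks this covariate nearly marks the PBS group, so calls lost there decide nothing. The endothelial covariate, chosen after seeing the data, left 0 in jak3i against PBS at 12 weeks, 0 in jak1i at 6 and at 24 weeks, 1 in jak1i at 12 weeks and 0 in jak3i at 12 weeks against 0 weeks. Endothelial list means did not overlap between the groups of any of these comparisons, so calls lost with this covariate decide nothing. The same holds for the hair shaft covariate in the comparisons at 12 weeks. Counts over all genes also fell over the settings that keep every array of the compared groups. The lowest was 0 in jak3i against PBS at 12 weeks, in jak1i at 24 and in jak3i at 12 against 0 weeks. In jak1i at 6 and 12 against 0 weeks it was 464 and 530, against 2250 and 2958. The member counts above are therefore not particular to the 8 genes. Using PBS at 6 weeks as the control gave 2 for jak3i at 12 weeks, Sox18 and Crabp1 (1.91, adjusted p = 0.033). Without single arrays the counts ran from 0 to 2 (jak3i against PBS at 12 weeks), 0 to 1 (the same at 6 weeks), 0 to 3, 1 to 4 and 0 to 1 (jak1i at 6, 12 and 24 against 0 weeks), and 0 to 1 and 0 to 2 (jak3i at 6 and 12 against 0 weeks). The replicate number as a block changed no call, with 1 gene still called in jak3i against PBS at 12 weeks, 3 in jak1i and 2 in jak3i at 12 against 0 weeks, and neither did the random block of arm and number (consensus correlation -0.047) or a trended, robust variance. Leaving out dim genes removed Sox2 and Alpl, and Crabp1 in jak1i at 12 against 0 weeks then passed (adjusted p = 0.0424).

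Differences larger than their standard error, none of them called, changed sign in 22 cases. With the hair shaft covariate these were, relative to PBS at 12 weeks, Sox18 (-0.05) and Vcan (0.11) in jak1i and Corin (0.02) in jak3i. Against 0 weeks they were Corin in jak1i at 24 weeks (0.25), Corin (0.19) and Wif1 (0.88) in jak3i at 12 weeks, and in the change relative to PBS in jak3i Sox2 (-0.21) and Corin (0.04). With the muscle covariate they were Sox18 (-0.36) and Crabp1 (-0.19) in jak1i and Rspo3 (-0.05) in jak3i against PBS at 12 weeks, and Sox18 (-0.19) and Crabp1 (-0.35) in the change of jak1i relative to PBS. All of these involve the PBS arrays at 12 weeks, which the muscle covariate nearly marks. With the endothelial covariate they were Sox18 in jak1i against PBS at 6 weeks (-0.04) and in jak1i against jak3i at 12 weeks (0.02), Corin in jak1i at 24 weeks (0.41) and in jak3i at 12 weeks (0.15) and Wif1 in jak3i at 12 weeks (0.48) against 0 weeks, and Sox2 (-0.08) and Sox18 (-0.10) in the change of jak3i relative to PBS. Vcan in jak1i against PBS was 0.12 with the 6-week control, and Wif1 in jak1i at 6 against 0 weeks ran from -0.14 (without jak1i at 0 weeks replicate 2) to 2.14 without single arrays. Counts over all genes moved widely, from 3148 in jak3i against PBS at 12 weeks to between 854 and 3547 without single arrays and between 0 and 4268 under the other settings, and from 1867 in jak3i at 12 against 0 weeks to between 1 and 1886 and between 0 and 3040. Centring the arrays moved the median of all genes by -0.14 and -0.17 in these comparisons. The 31 arrays, 2 to 3 a group, limit all of these values.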
